A study of Solanum tuberosum with 12 samples.

Results

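The change of potato leaf transcripts between 3 and 8 weeks at high temperature was measured in 6 of the 12 libraries of the study, 3 from plants kept at HT for 8 weeks (HT_8W) and 3 from plants kept at HT for 3 weeks (HT_3W). The features were the 580 transcripts for which counts were listed at both ages, of 6438 transcripts listed at 3 or at 8 weeks. The authors had listed a transcript where HT and normal temperature (NT) differed by at least 1.5 on the log2 scale, at 3 weeks and again at 8 weeks. These are therefore transcripts selected for a difference between temperatures, partly on the same HT libraries, and not a sample of the leaf transcriptome.

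All plants were the potato cultivar Desiree, multiplied in vitro on sucrose medium and then grown in soil with day and night of 12 h each. HT meant 35 °C by day and 29 °C by night, NT meant 22 °C and 16 °C, each temperature was kept for 3 or 8 weeks, and each of the 4 groups had 3 libraries. RNA came from the upper 5 leaves of the plant, whose own ages are not given, and strand-specific libraries were made from its poly(A) fraction. Nothing in the labels says whether the 3 libraries of a group came from separate plants, so the p-values measure only the spread between these libraries, which may be technical. Plant age and time at heat increased together between HT_3W and HT_8W and cannot be told apart.

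A young leaf invests in cell division, wall growth and the photosynthetic antenna, and an ageing leaf turns to export of nitrogen and sugars, proteolysis and, in many plants, defence gene expression. Heat adds a second programme: heat stress factors switch on small heat shock proteins, which bind unfolding proteins until larger chaperones refold them. Small heat shock proteins are scarce in leaves of unstressed plants.

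The HT libraries held between 57361448 and 66602938 counts in all, and the 580 transcripts made up 0.845% to 1.10% of them. HT_8W replicate 1 stood apart from its group: over 252 transcripts with at least 10 counts in every library it lay on average (root mean square) 1.64 log2 units from the mean of the others, which differed by 1.11. Within HT_3W the same distance was 0.405 to 0.593. Among the NT libraries NT_3W replicate 1 stood apart, at 1.55 log2 units against 0.592 between the others. Levels are given as counts per 1000000 of the library total (CPM) in the order of replicates 1, 2 and 3, and results are also given without HT_8W replicate 1.

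Between 3 and 8 weeks at HT the transcripts that rose included small heat shock proteins, a sulfate and a proline transporter, the MADS-box factor AGL8 and 2 photosystem II proteins, while an osmotin, a cytochrome P450 and a lipid transfer-like protein fell. Of 535 transcripts with enough counts to test, 37 (6.92%) passed edgeR's quasi-likelihood test at a Benjamini-Hochberg adjusted p under 0.05, 29 higher (5.42%) and 8 lower (1.5%) at 8 weeks, and 45 transcripts had too few counts. The adjusted p of the calls lay between 0.0137 and 0.0491, and the median log2 change over all transcripts tested was 0.325. In 133 transcripts (24.9%) all HT_8W libraries lay above all HT_3W libraries, and in 79 (14.8%) all lay below. Of the 37 calls, 27 have a product name and 10 are products of unknown function, 8 of them higher by 1.29 to 4.21 and 2 lower, by -3.46 and -1.70 on the log2 scale.

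The number of calls rested on single libraries. Without HT_8W replicate 1, 189 of 548 transcripts passed (34.5%), 125 higher (22.8%) and 64 lower (11.7%), and these held all 37 calls in the same direction. Without HT_8W replicate 3, 5 passed, of which 3 were among the 37. Without HT_8W replicate 2, or without any 1 of the HT_3W libraries, edgeR called 0, with 104 to 127 transcripts at an unadjusted p under 0.05 against 156 with all libraries. DESeq2's Wald test on all 6 libraries called 138, among them all 37. The split into 29 higher and 8 lower also moved with the scaling, to 13 and 6 with TMM (2.43% and 1.12%), 15 and 8 with DESeq2 size factors (2.8% and 1.49%) and 83 and 9 with the authors' scaling (15.5% and 1.68%). The median change of all transcripts was then 0.10, 0.06 and 0.63. The authors' scaling sets HT against NT within each age, so its use between ages here assumes that NT libraries need no scaling between ages.

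The age change at HT was also compared with that at NT, by an interaction test over all 12 libraries. For 147 of the 580 transcripts the authors' listing had HT on opposite sides of NT at the 2 ages, which fixes the sign of that difference on the same libraries and enters the size of the NT change. Of those listed as higher at HT at 3 weeks and lower at 8 weeks, 91 of 91 tested rose at NT. Of those listed the other way, 52 of 53 fell at NT. The listing does not by itself say at which temperature a transcript changed, but nearly all NT calls of such transcripts go in its direction. For the 147 the levels are given as a description and no test of the difference is reported transcript by transcript. Counts of the interaction over all transcripts include them. Among the 430 transcripts tested and listed on 1 side at both ages, the difference passed in 52 (12.1%), positive in 29 and negative in 23.

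**Figure D1:**
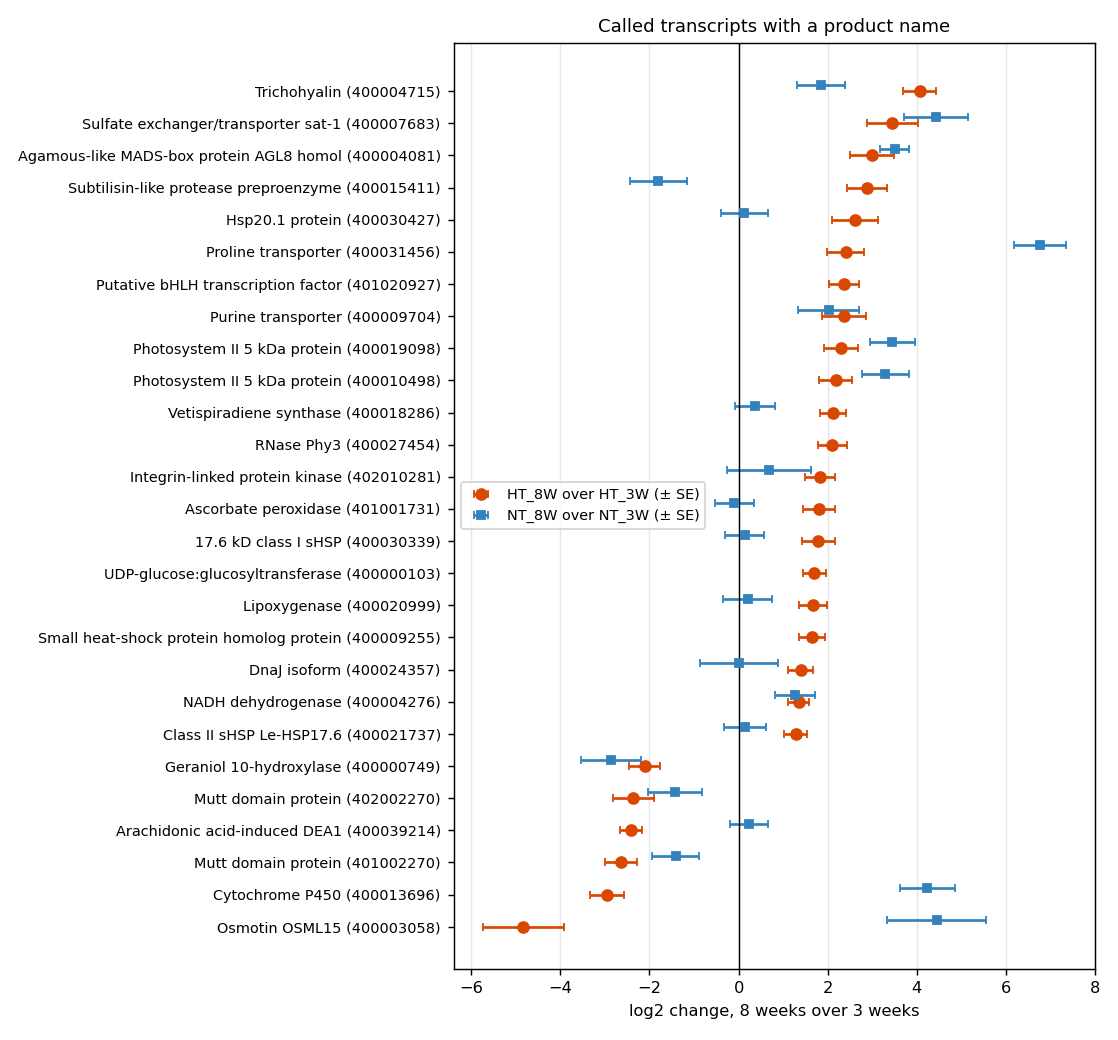
Log2 change from 3 to 8 weeks (x axis) of the 27 called transcripts with a product name (rows, with the end of their identifiers), at HT (circles) and, where tested, at NT (squares), with bars of 1 standard error over 3 libraries a group. Trichohyalin stands highest at HT with 4.06 and osmotin OSML15 lowest with -4.82, and at NT osmotin OSML15 lies on the other side of 0, at 4.44.

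Small heat shock proteins were the list with most calls. All 11 members in the table were tested, 4 rose and 7 did not pass, against 5.42% of all transcripts higher; their median log2 change was 1.27 and that of all transcripts 0.325. With TMM or DESeq2 size factors edgeR called 0 of the 11, with 9 at an unadjusted p under 0.05 in each and medians of 0.988 and 0.975, and edgeR with the authors' scaling called 10, against 15.5% of all transcripts higher. DESeq2's Wald test called 10 higher, against 18.5%, and edgeR without HT_8W replicate 1 also called 10, against 22.8%. All HT_8W libraries lay above all HT_3W libraries in 10 of the 11, against 24.9%.

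The largest of these calls was Hsp20.1 (PGSC0003DMG400030427), which stood at 1.75, 1.62 and 0.923 CPM at 3 weeks and 3.96, 10.3 and 12.1 at 8 weeks. Replicate 1 was the lowest of the HT_8W libraries and still lay above all HT_3W libraries. The change was 2.62 ± 0.52 log2 units (SE, 3 libraries a group; adjusted p = 0.0362, edgeR), a 6.17-fold ratio of the mean levels. The 17.6 kD class I protein PGSC0003DMG400030339 rose from 5.78, 6.19 and 4.39 CPM to 11.1, 23.7 and 21.8. The groups did not overlap, and the change was 1.79 ± 0.37 (adjusted p = 0.0389, edgeR). Its neighbour in the numbering, PGSC0003DMG400030340, with the same product name, had the widest spread: 2.78, 2.19 and 2.28 CPM at 3 weeks and 5.88, 42.3 and 19.3 at 8 weeks. Replicate 2 was far higher than replicate 1, and the change of 3.21 ± 0.72 did not pass (adjusted p = 0.0515, edgeR). The class I genes are close relatives, so reads may have been divided between them by the authors' counting, and their separate values are uncertain.

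The other 2 calls were a small heat-shock protein homolog (PGSC0003DMG400009255), from 1.02, 1.20 and 0.836 to 2.74, 3.24 and 3.66 CPM, and a class II protein, Le-HSP17.6 (PGSC0003DMG400021737), from 17.3, 22.8 and 23.5 to 59.5, 48.4 and 46.4 CPM. Both groups were tight, and the log2 changes were 1.65 ± 0.29 (adjusted p = 0.0293, edgeR) and 1.28 ± 0.26 (adjusted p = 0.0387, edgeR). The second class II protein (PGSC0003DMG400008187) stood at 51.1, 55.6 and 49.9 CPM and then 140.0, 102 and 102, a change of 1.14 that did not pass (adjusted p = 0.0546, edgeR). In the class II proteins HT_8W replicate 1 was the highest library, whereas in Hsp20.1 and the 17.6 kD class I proteins it was the lowest.

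None of the transcripts named for the chloroplast passed edgeR's test with all libraries. The 3 transcripts named chloroplast small heat shock protein class I (PGSC0003DMG400011630, PGSC0003DMG400011631 and PGSC0003DMG400011632) and PGSC0003DMG400011977, named only small heat shock protein, had log2 changes of 1.02 to 1.28. They did not pass in edgeR, with adjusted p from 0.0692 to 0.116, and had all HT_8W libraries above all HT_3W libraries. DESeq2's Wald test called all of them, with adjusted p from 0.0011 to 0.031. The small heat shock protein annotated as chloroplastic (PGSC0003DMG400003219) stood at 129, 201 and 109 CPM at 3 weeks and 203, 146 and 69.0 at 8 weeks. Its groups overlapped fully and its change was -0.07 ± 0.48 (adjusted p = 0.926, edgeR), the lowest of the 11.

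Between 3 and 8 weeks at NT edgeR called 0 of the 10 small heat shock proteins that could be tested, with 0 at an unadjusted p under 0.05, and the median log2 change was 0.141. Of all transcripts 53.3% were called at NT, a share that includes those listed on opposite sides of NT, to which none of the 11 belongs. Among the 145 tested at NT and listed as higher at HT at both ages, fewer were called, 24 higher and 17 lower. The change at HT exceeded that at NT by the interaction test in 2 of 11, against 29 of the 430 transcripts tested and listed on 1 side at both ages. The 2 were Hsp20.1 (2.5 ± 0.72, adjusted p = 0.017, edgeR) and the class II protein PGSC0003DMG400008187 (1.56 ± 0.51, adjusted p = 0.0302, edgeR). In the other 9 a difference was not shown. HSF30 (PGSC0003DMG400006447), the only heat stress factor in the table, stood at 2.16, 2.14 and 2.37 CPM and then 2.07, 1.32 and 1.09, a change of -0.57 ± 0.33 that did not pass (adjusted p = 0.289, edgeR).

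**Figure D2:**
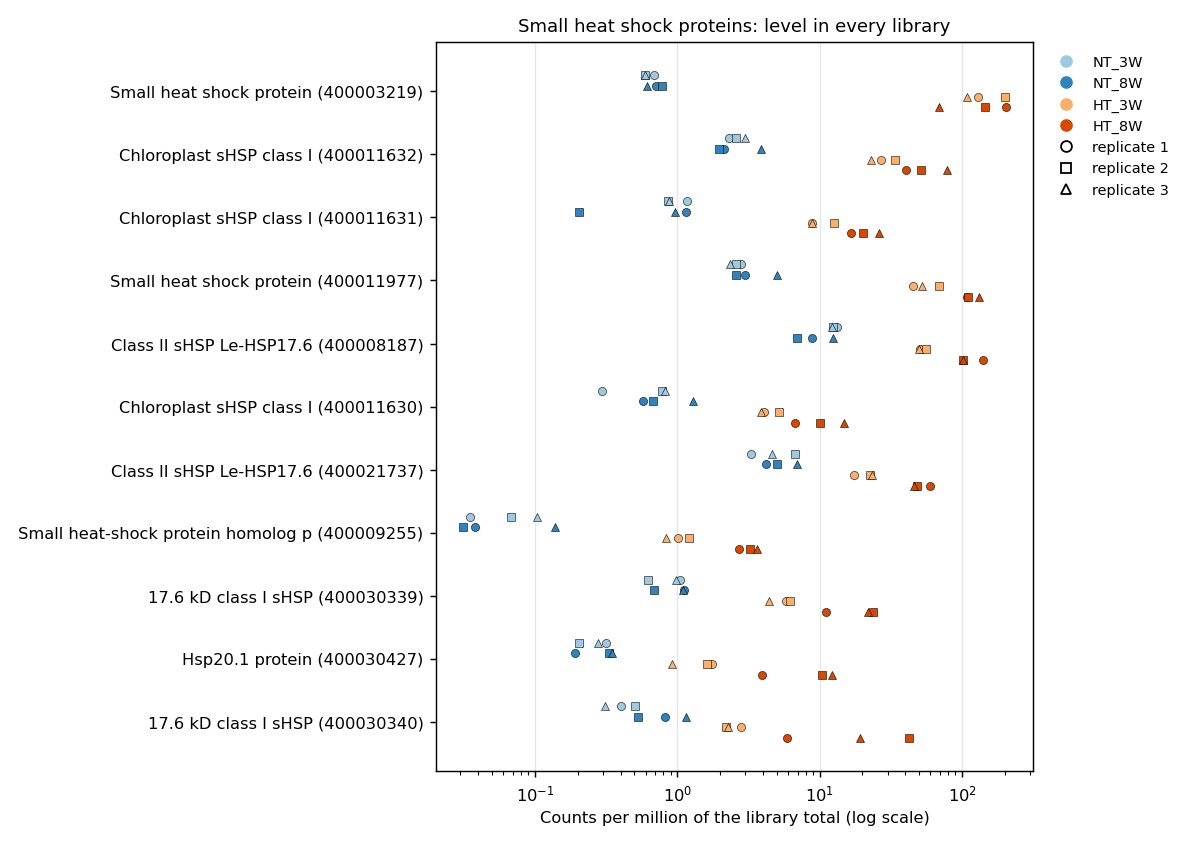
Level of the 11 small heat shock proteins in every library, in counts per 1000000 of the library total on a log axis; colours mark the 4 groups and symbols the replicates. The HT_8W points lie to the right of the HT_3W points in 10 rows and among them in the chloroplastic protein PGSC0003DMG400003219, and the NT points of both ages lie together on the left.

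Of the 10 large chaperones and co-chaperones 1 rose, against 5.42% of all transcripts. It was a DnaJ isoform (PGSC0003DMG400024357), a co-chaperone that loads Hsp70, from 3.65, 5.71 and 3.93 to 13.7, 10.3 and 11 CPM (1.40 ± 0.28, adjusted p = 0.0384, edgeR). The groups did not overlap. The most abundant member, BCL-2-associated athanogene 6 (PGSC0003DMG400000079), a co-chaperone of the BAG family, stood at 1470.2, 1926 and 1226 CPM at 3 weeks and 2249.9, 3792 and 4107 at 8 weeks. Every HT_8W library was higher, but the change of 1.13 ± 0.50 did not pass (adjusted p = 0.194, edgeR). The NT levels were 61.0, 66.7 and 85.6 and then 272, 277 and 191 CPM. Another transcript named DnaJ (PGSC0003DMG400003565) had 2418, 2295 and 1950 counts in HT_3W and 5991, 14624 and 4815 in HT_8W and was not called in edgeR. DESeq2's Wald test called 3 of the 10 higher, against 18.5% of all transcripts. With TMM or DESeq2 size factors edgeR called 0. The median log2 change of the list was 0.410, near the 0.325 of all transcripts. These co-chaperones and the genes outside the rule for named genes, here and in what follows, were chosen after their values were seen.

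Among transporters 3 of 21 tested rose, against 5.42% of all transcripts, and none fell, at a median of 0.84. At NT 13 of 20 rose, against 37.6% of all transcripts, and 1 fell. The largest was a sulfate, bicarbonate and oxalate exchanger, sat-1 (PGSC0003DMG400007683), which went from 2.36, 1.30 and 2.21 CPM to 9.94, 18.6 and 35.9. Replicate 3 was the highest and replicate 1 the lowest of the 8-week libraries, all above the 3-week libraries (3.45 ± 0.57, adjusted p = 0.0279, edgeR). At NT the same transcript rose from 0.561, 0.204 and 0.156 to 7.69, 9.25 and 3.03 CPM (4.43, adjusted p = 0.000835, edgeR), and the difference between the temperatures did not pass (adjusted p = 0.464, edgeR).

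The proline transporter (PGSC0003DMG400031456), which moves an amino acid that plants accumulate under stress, stood at 3.94, 3.02 and 3.62 CPM at 3 weeks and 9.66, 24.5 and 21.8 at 8 weeks. It rose at HT by 2.40 ± 0.41 (adjusted p = 0.0279, edgeR). At NT it rose from 0.490, 1.02 and 1.04 to 94.2, 106 and 78.4 CPM, a 109-fold ratio of means against 5.30-fold at HT. It was listed as higher at HT at 3 weeks and lower at 8 weeks. A purine transporter (PGSC0003DMG400009704) rose from 0.433, 0.412 and 0.435 to 1.17, 1.73 and 3.69 CPM (2.36 ± 0.49, adjusted p = 0.0429, edgeR). Its spread lay in the 8-week libraries. The relatives numbered next to it, PGSC0003DMG400009705 and PGSC0003DMG400009706, had changes of -0.21 and -0.45 at HT, which did not pass, and rose by 3.49 and 4.94 at NT (adjusted p = 0.000319 and 6.21e-05, edgeR). Without HT_8W replicate 1, 10 transporters of 22 tested were called higher at HT, against 22.8% of all transcripts, and 1 lower, against 11.7%. Of the 22, 10 were listed on opposite sides of NT at the 2 ages. Nearly all transcripts so listed were called at NT, so the NT count does not set transporters apart.

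Among the regulators, the AGL8 homolog (PGSC0003DMG400004081), a MADS-box transcription factor whose Arabidopsis counterpart is FRUITFULL, rose from 15.1, 9.32 and 16.1 to 53.6, 157 and 113 CPM. The 8-week libraries were all higher, replicate 1 least (3.00 ± 0.50, adjusted p = 0.0279, edgeR). At NT it rose from 26.5, 33.7 and 31.3 to 370.4, 339.7 and 324 CPM, an 11.3-fold ratio of means against 8.00-fold at HT. The difference of the log2 changes was -0.50 ± 0.61 and did not pass (adjusted p = 0.613, edgeR). A putative bHLH factor (PGSC0003DMG401020927) rose from 0.294, 0.214 and 0.383 to 1.43, 1.62 and 1.58 CPM (2.37 ± 0.33, adjusted p = 0.0265, edgeR). It had no counts in any NT_3W library and 0.114, 0.659 and 0.174 CPM in NT_8W. Of the 16 MYB, bHLH, MADS-box and other factors of this list these 2 passed at HT, against 5.42% of all transcripts higher, and the list's median was 0.798.

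Of the 4 transcripts in the senescence and proteolysis list 2 rose, against 5.42% of all transcripts. A further 5 with protease names lie outside that list (Phytophthora-inhibited protease 1, SBT4B, legumain, a caspase and a Ulp1 protease). Of them edgeR called 0, against 6.92% of all transcripts, at log2 changes from -1.23 to 2.20. Without HT_8W replicate 1 it called 3 of the 5, against 34.5%. The subtilisin-like protease PGSC0003DMG400015411, a secreted serine protease, was a low transcript at 0.124, 0.181 and 0.0871 CPM in HT_3W and 1.05, 1.23 and 0.655 in HT_8W. The groups did not overlap (2.88 ± 0.45, adjusted p = 0.0279, edgeR). At NT it fell, from 0.333, 0.509 and 0.469 to 0.229, 0.0628 and 0.0871 CPM (-1.80, adjusted p = 0.0412, edgeR); it was listed as lower at HT at 3 weeks and higher at 8 weeks. It was the only transcript called higher at HT and lower at NT. RNase Phy3 (PGSC0003DMG400027454), a ribonuclease, rose from 1.48, 1.11 and 1.39 to 5.13, 4.29 and 7.72 CPM (2.10 ± 0.33, adjusted p = 0.0279, edgeR). At NT it had too few counts to test.

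The 2 photosystem II 5 kDa proteins, small nuclear-encoded subunits of the complex that splits water, rose at HT and at NT. PGSC0003DMG400010498 went from 13.3, 15.1 and 11.8 to 37.6, 85.8 and 58.8 CPM (2.18 ± 0.37, adjusted p = 0.0279, edgeR) and PGSC0003DMG400019098 from 3.21, 3.66 and 2.63 to 8.98, 20.9 and 16.8 CPM (2.30 ± 0.38, adjusted p = 0.0279, edgeR). In both, replicate 2 of HT_8W was the highest and replicate 1 the lowest library. How reads were divided between 2 transcripts of the same name was not tested. At NT the changes were 3.29 and 3.45. The third photosystem II member of the list, a 10 kDa polypeptide (PGSC0003DMG400002312), stood at 16.4, 22.8 and 11.9 and then 25.7, 41.3 and 47.4 CPM, a change of 1.17 ± 0.37 that did not pass (adjusted p = 0.101, edgeR; 0.0231 without HT_8W replicate 1), and it rose by 2.98 at NT (adjusted p = 0.00164, edgeR).

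The 4 chlorophyll a/b binding proteins of the same list, which form the light-harvesting antenna, had the opposite sign. The most abundant, PGSC0003DMG400008300, stood at 1059, 1112 and 991 CPM in HT_3W and 694, 129 and 191 in HT_8W. Replicate 1 lay far nearer to the 3-week libraries than replicates 2 and 3 did, though still below them, and the change of -1.64 ± 0.71 did not pass (adjusted p = 0.186, edgeR). None of the 4 passed edgeR's test at HT with all libraries, at log2 changes from -2.59 to -1.64. DESeq2's Wald test on all 6 libraries called 2 of the 4 lower, against 7.29% of all transcripts. It called 3 members of the list higher, against 18.5%. Without HT_8W replicate 1 all 4 passed, with changes from -4.33 to -2.72 and adjusted p from 0.00223 to 0.00281 (edgeR). At NT all 4 fell: PGSC0003DMG400008300 went from 2257, 2383 and 2539.9 to 28.9, 29.0 and 32.2 CPM, a 79.7-fold lower mean, against 3.12-fold at HT. At 8 weeks the HT level was above the NT level and at 3 weeks below it, as the authors' listing at both ages requires.

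Calls of histones, which package newly made DNA in dividing cells, depended on 1 library. At HT edgeR and DESeq2's Wald test called 0 of the 5 transcripts of the histone, replication and cell cycle list, with 0 at an unadjusted p under 0.05 in edgeR. Histone H4 (PGSC0003DMG400023522) stood at 17.3, 20.1 and 22.4 CPM in HT_3W and 15.0, 2.33 and 1.07 in HT_8W, and histone H2A (PGSC0003DMG400024029) at 10.3, 12.8 and 14.4 and 10.2, 0.901 and 0.856 CPM. In both, HT_8W replicate 1 lay close to the 3-week libraries and replicates 2 and 3 lay far below. The changes were -1.70 ± 0.95 and -1.65 ± 1.01 (adjusted p = 0.281 and 0.317, edgeR). Without replicate 1 they were -3.55 and -3.83 and passed (adjusted p = 0.00311 and 0.00215, edgeR). In bulk leaf RNA fewer dividing cells and less RNA per cell cannot be told apart. At NT both fell, by 5.58 and 6.09 on the log2 scale, and both were listed as lower at HT at 3 weeks and higher at 8 weeks. Of the 2 kinesins, motor proteins of microtubules, the kinesin heavy chain (PGSC0003DMG400024777) stood at 1.36, 2.71 and 2.18 and 1.81, 0.556 and 0.755 CPM; it did not pass with all libraries and passed without replicate 1 (-1.66, adjusted p = 0.0324, edgeR). The kinesin PGSC0003DMG400023112 and a cell division protein kinase (PGSC0003DMG400033129) did not pass with or without that library.

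The median of each list by library set out this split. Relative to the HT_3W mean, the light harvesting and photosystem list, 4 antenna members and 3 of photosystem II with changes of the other sign, stood at -0.604 in HT_8W replicate 1 and at -3.03 and -2.46 in replicates 2 and 3. The histone and cell cycle list stood at -0.293, -1.91 and -1.46. Small heat shock proteins did not divide this way, with 1.02, 1.19 and 1.5. In proteinase inhibitors replicate 1 lay farthest from the 3-week libraries, with 2.04, 0.865 and 1.33. The part of this library's position in the results was not tested.

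**Figure D3:**
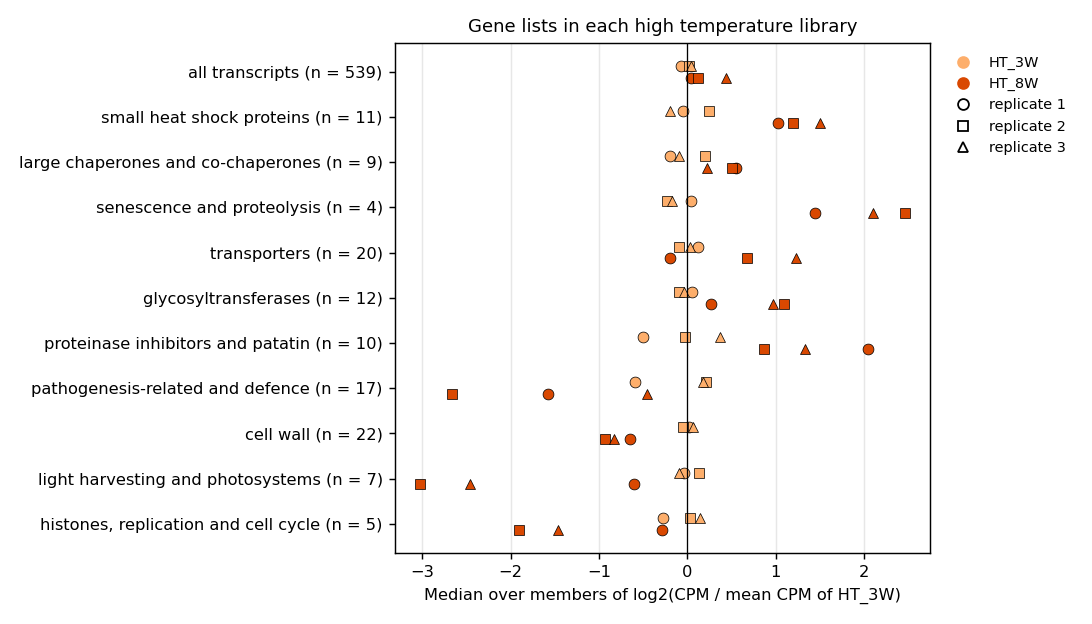
Median over the members of each gene list of log2(CPM over the mean CPM of HT_3W), x axis, in each of the 6 HT libraries; n is the number of members with counts in all of them, and symbols mark the replicates. HT_8W replicate 1 (circle) lies near 0 for histones (-0.293) and photosystems (-0.604), where replicates 2 and 3 lie below -1, and with the other HT_8W libraries for small heat shock proteins.

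Of 22 cell wall transcripts tested edgeR called 0, with 9 at an unadjusted p under 0.05, and DESeq2's Wald test called 2 higher and 6 lower, against 18.5% and 7.29% of all transcripts; the median was -0.650, below 0 in 17 and above in 5. Without HT_8W replicate 1, 3 were called higher and 8 lower of 23, against 22.8% and 11.7% of all transcripts. The fasciclin-like arabinogalactan protein 1 (PGSC0003DMG400009400), an adhesion protein of growing walls, stood at 99.2, 136 and 125 CPM in HT_3W and 45.1, 12.3 and 14.9 in HT_8W. The groups did not overlap, and the change of -2.32 ± 0.58 did not pass (adjusted p = 0.0573, edgeR; 0.00223 without replicate 1). A xyloglucan endotransglucosylase-hydrolase (PGSC0003DMG400000408), an enzyme that cuts and rejoins wall xyloglucan, had higher levels at 8 weeks, 104, 70.9 and 78.7 and then 159.8, 316 and 274 CPM. Its change of 1.57 ± 0.38 did not pass either (adjusted p = 0.0559, edgeR).

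The deepest fall was in the defence list, where osmotin OSML15 (PGSC0003DMG400003058), a pathogenesis-related protein of the thaumatin family, went from 1.48, 8.41 and 5.78 CPM at 3 weeks to 0.122, 0.0751 and 0.353 at 8 weeks. The 3-week libraries differed among themselves, and all exceeded the 8-week libraries. It fell by 28.5-fold in the mean level, and the log2 change was -4.82 ± 0.92 (adjusted p = 0.0362, edgeR). At NT it rose from 0.333, 0.187 and 0 to 7.43, 1.51 and 2.47 CPM (4.44, adjusted p = 0.0084, edgeR), and it was listed as higher at HT at 3 weeks and lower at 8 weeks. Osmotins share sequence, so reads of the 4 osmotin transcripts may have been divided between them.

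The other 17 defence transcripts tested did not pass at HT, where 4 of the 18 had an unadjusted p under 0.05. DESeq2's Wald test called 2 higher and 2 lower, against 18.5% and 7.29% of all transcripts. Without HT_8W replicate 1, 4 of the 18 were called higher and 5 lower, against 22.8% and 11.7% of all transcripts. At NT 13 of 18 rose and 4 fell, against 37.6% and 15.8%, but 17 of the 18 were listed on opposite sides of NT at the 2 ages. Nearly all transcripts so listed were called at NT, so these shares do not set the defence list apart. The median log2 change was -0.968 at HT and 4.88 at NT. A PR1 protein (PGSC0003DMG400005111), a secreted marker of defence activation, stood at 12.7, 19.3 and 22.1 CPM in HT_3W and 6.03, 30.3 and 62.8 in HT_8W, with full overlap, and at 1.68, 2.02 and 1.32 and 163, 177 and 300.3 CPM at NT. Class I chitinase (PGSC0003DMG400010283), which cuts fungal wall chitin, stood at 18.7, 8.93 and 17.9 and 17.3, 124 and 47.9 CPM at HT and at 1.91, 2.07 and 1.25 and 293, 247 and 291 at NT. The HT change of 2.05 did not pass (adjusted p = 0.132, edgeR) and the NT change was 7.31. Chitin-binding lectin 1 (PGSC0003DMG400019517) went the other way at NT, from 2907, 2827 and 3499 to 16.1, 14.7 and 15.6 CPM, against 1220.4, 853 and 1209.8 and 684, 43.1 and 228 at HT. Here too HT_8W replicate 1 was the highest 8-week library, and the HT change of -1.78 did not pass (adjusted p = 0.264, edgeR).

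The other falls were few. A cytochrome P450 (PGSC0003DMG400013696), of a large family of monooxygenases, went from 1.93, 2.38 and 1.17 CPM to 0.262, 0.240 and 0.201 at HT, with no overlap between the ages (-2.95 ± 0.39, adjusted p = 0.0265, edgeR). At NT it rose from 0.123, 0.289 and 0.521 to 7.03, 5.23 and 5.35 CPM, and it was listed as higher at HT at 3 weeks and lower at 8 weeks. The arachidonic acid-induced DEA1 (PGSC0003DMG400039214), a small secreted protein with a lipid transfer-type domain, fell from 9.91, 7.85 and 9.30 to 1.5, 1.73 and 1.86 CPM, with replicates close together at both ages (-2.41 ± 0.24, adjusted p = 0.0137, edgeR). At NT it stood at 42.2, 68.6 and 48.5 and 50.5, 82.0 and 55.4 CPM, a change that did not pass, and the interaction was -2.65 ± 0.53 (adjusted p = 0.00197, edgeR).

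Geraniol 10-hydroxylase (PGSC0003DMG400000749), a P450 of monoterpene metabolism, fell from 11.4, 8.43 and 9.30 to 3.14, 2.01 and 1.59 CPM at HT (-2.11 ± 0.34, adjusted p = 0.0279, edgeR) and also at NT (-2.86, adjusted p = 0.00577, edgeR). Another transcript named geraniol 10-hydroxylase, PGSC0003DMG400000745, had 62, 39 and 38 counts in HT_3W and 32, 97 and 73 in HT_8W, so its groups overlapped. How reads were divided between these transcripts was not tested. A pair of neighbouring Mutt domain proteins, a family of nucleotide-cleaving Nudix hydrolases, fell together. PGSC0003DMG401002270 went from 1.81, 1.39 and 1.57 to 0.262, 0.330 and 0.168 CPM (-2.64 ± 0.37, adjusted p = 0.0265, edgeR) and PGSC0003DMG402002270 from 1.58, 2.18 and 2.07 to 0.418, 0.526 and 0.185 CPM (-2.36 ± 0.45, adjusted p = 0.0362, edgeR). Their identifiers differ by 1 digit, and their reads may not be independent.

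Proteinase inhibitors, which plants make against insects and store in tubers, had 0 calls in edgeR at HT among 11 tested, with 4 at an unadjusted p under 0.05. DESeq2's Wald test called 4 higher, against 18.5% of all transcripts. Aspartic protease inhibitor 5 (PGSC0003DMG400009513) stood at 2.95, 5.97 and 7.57 CPM in HT_3W and 395, 25.9 and 69.4 in HT_8W. Replicate 1 was by far the highest, the groups did not overlap, and the change of 4.89 ± 1.16 just missed the threshold (adjusted p = 0.0546, edgeR). Without that library it was 3.12 and passed (adjusted p = 0.0108, edgeR). At NT it fell, from 20.7, 12.7 and 11.8 to 0.647, 0.864 and 4.18 CPM, and it was listed as lower at HT at 3 weeks and higher at 8 weeks.

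Multicystatin PGSC0003DMG400026899, an inhibitor of cysteine proteases, followed the same order: 2.53, 3.45 and 7.78 CPM in HT_3W, 129.6, 10.6 and 37.5 in HT_8W, 40.5, 29.1 and 37.4 in NT_3W and 0.495, 0.502 and 0.244 in NT_8W. A second multicystatin, PGSC0003DMG400005950, stood at 3.14, 5.53 and 11.4, 187, 13.6 and 51.4, 65.5, 44.1 and 59.1 and 0.514, 0.675 and 0.784 CPM in the same groups. Multicystatins share sequence, so their separate values are uncertain. Of the 11 transcripts of the list 9 were listed on opposite sides of NT at the 2 ages. Replicate 1 was not the highest HT_8W library throughout: in ethylene-responsive proteinase inhibitor 1 (PGSC0003DMG400003056) the HT_8W levels were 2.89, 8.98 and 15.6 CPM and in patatin 3 (PGSC0003DMG400010022) 3.16, 5.89 and 16.5 CPM. The median log2 change was 1.59 at HT, with 10 of 11 above 0, and -2.99 at NT, where 6 of 10 tested fell and 3 rose, against 15.8% and 37.6% of all transcripts. With 9 of the 11 listed on opposite sides, a class nearly all called at NT, these NT counts do not set the list apart.

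**Figure D4:**
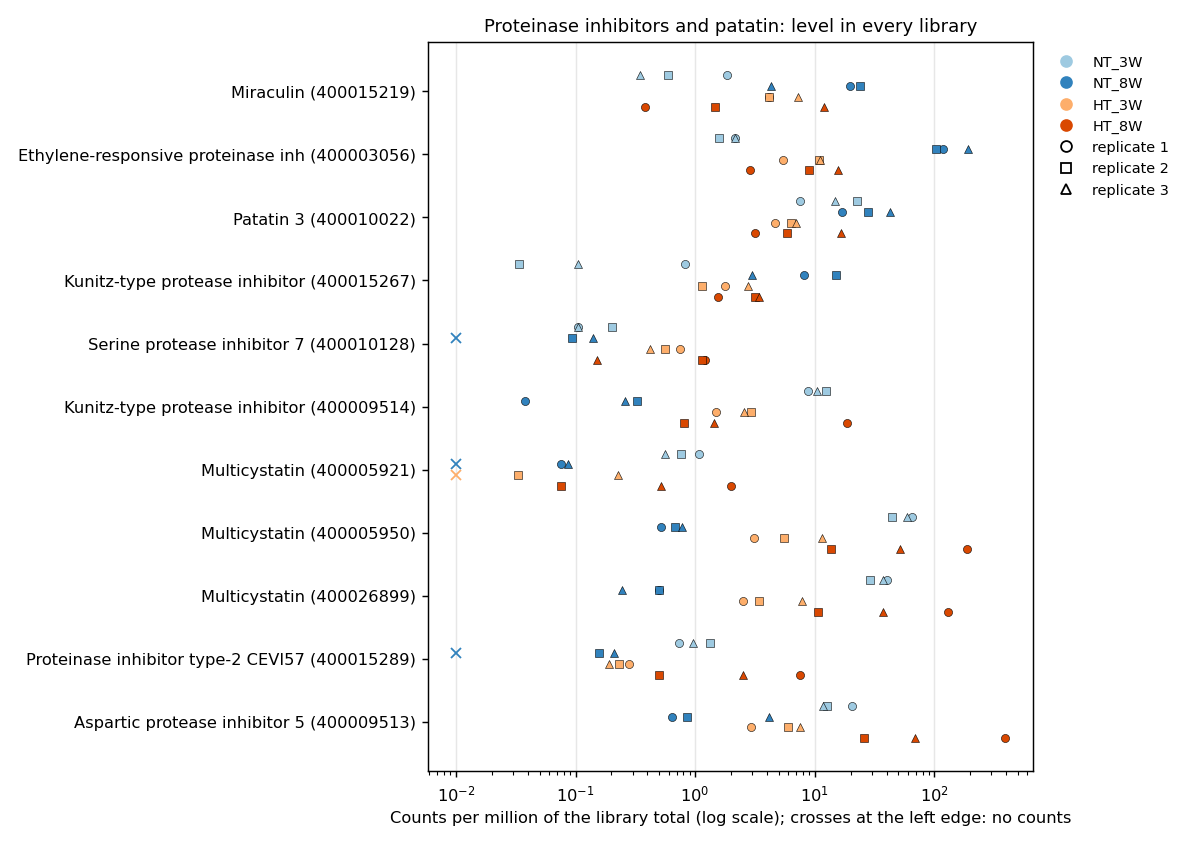
Level of the 11 proteinase inhibitors and patatin in every library, in counts per 1000000 of the library total on a log axis, with colours for groups and symbols for replicates; crosses at the left edge stand for no counts. In aspartic protease inhibitor 5 and the multicystatins PGSC0003DMG400005950 and PGSC0003DMG400026899 HT_8W replicate 1 (circle) is the rightmost point; the NT_8W points lie lowest in both multicystatins, and in the aspartic protease inhibitor NT_8W replicate 3 lies among the HT_3W points.

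The remaining named rises fell into several roles. Trichohyalin (PGSC0003DMG400004715), a product name taken from an animal hair protein whose role in plants is not established, rose most, from 2.02, 1.96 and 1.11 to 35.5, 22.9 and 26.9 CPM (4.06 ± 0.37, adjusted p = 0.0137, edgeR). Its means differed 16.7-fold, and the interaction with NT was 2.22 ± 0.68 (adjusted p = 0.0232, edgeR). Vetispiradiene synthase (PGSC0003DMG400018286), which makes the precursor of potato sesquiterpene phytoalexins, rose from 3.32, 4.31 and 3.06 to 20, 13.3 and 13.3 CPM (2.12 ± 0.30, adjusted p = 0.0265, edgeR). At NT it stood at 0.403, 0.713 and 0.452 and 0.743, 0.628 and 0.662 CPM, and the interaction passed (1.75, adjusted p = 0.025, edgeR).

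Ascorbate peroxidase (PGSC0003DMG401001731), which removes hydrogen peroxide, rose from 37.3, 45.7 and 37.2 to 89.6, 181 and 150.5 CPM, with replicate 1 lowest (1.81 ± 0.35, adjusted p = 0.0362, edgeR). At NT it lay between 2.94 and 5.41 CPM, and the interaction was 1.91 ± 0.57 (adjusted p = 0.0187, edgeR). Lipoxygenase (PGSC0003DMG400020999), which starts oxylipin synthesis, rose from 1.67, 1.72 and 1.85 to 6.22, 3.59 and 6.85 CPM (1.67 ± 0.32, adjusted p = 0.0362, edgeR). Also higher were a UDP-glucose:glucosyltransferase (PGSC0003DMG400000103, 1.69), an integrin-linked protein kinase (PGSC0003DMG402010281, 1.83) and an NADH dehydrogenase (PGSC0003DMG400004276, 1.35), with adjusted p of 0.0279, 0.0316 and 0.0316 (edgeR). For contrast, the 2 abundant transcripts with the smallest change, both of unknown function, had 0.04 (PGSC0003DMG400014214, 36.5, 51.5 and 41.8 and then 44.8, 38.6 and 50.1 CPM) and 0.04 (PGSC0003DMG400009876).

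The age change at HT was compared with that at NT, which shares none of its libraries. At NT 240 of 450 transcripts tested passed (53.3%), 169 higher (37.6%) and 71 lower (15.8%). Among the 430 transcripts tested and listed on 1 side at both ages, the change at HT differed from that at NT in 52 (12.1%), positive in 29 and negative in 23. Over all 576 tested it differed in 196 (34%), positive in 84 (14.6%) and negative in 112 (19.4%). Of these 196, 144 were listed on opposite sides of NT at the 2 ages, where the listing fixes the sign of the difference. The 34% and its split are therefore in large part set by the selection. The split of the 196 also moved with the scaling, to 154 and 82 with TMM and 125 and 96 with DESeq2 size factors. Over 411 transcripts tested at both temperatures the median absolute log2 change was 0.781 at HT and 1.9 at NT, and the NT change was the larger in 312. These include the transcripts listed on opposite sides of NT, whose listing enters the size of the NT change. Among those listed as higher at HT at both ages the NT change was the larger in size in 97 of 145. Among those listed as lower at both ages it was the larger in 78 of 124. Over those tested at each temperature the median log2 changes at HT and NT were 0.415 and 0.356 in the former and 0.166 and 1.11 in the latter. The former were listed for NT levels below HT and the latter for HT levels below NT, so the listing enters these counts too. Over the 411 the signs matched in 290 and differed in 121. Of the 29 transcripts that rose at HT, 12 also rose at NT, 1 fell, 10 did not pass and 6 could not be tested. Of the 8 that fell at HT, 3 rose at NT, 1 fell and 4 did not pass.

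The 147 transcripts that the authors' listing placed on opposite sides of NT at the 2 ages moved mostly at NT. Of the 92 listed as higher at HT at 3 weeks and lower at 8 weeks, 89 were tested at both temperatures, and the NT change was the larger in 88. Their median log2 change was 0.50 at HT and 5.91 at NT. Of the 55 listed the other way, 53 were tested, the NT change was the larger in 49, and the medians were -0.605 at HT and -5.30 at NT. The listing fixes the sign of the difference between HT and NT changes for these transcripts and enters the size of the NT change, so the difference is given as a description.

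**Figure D5:**
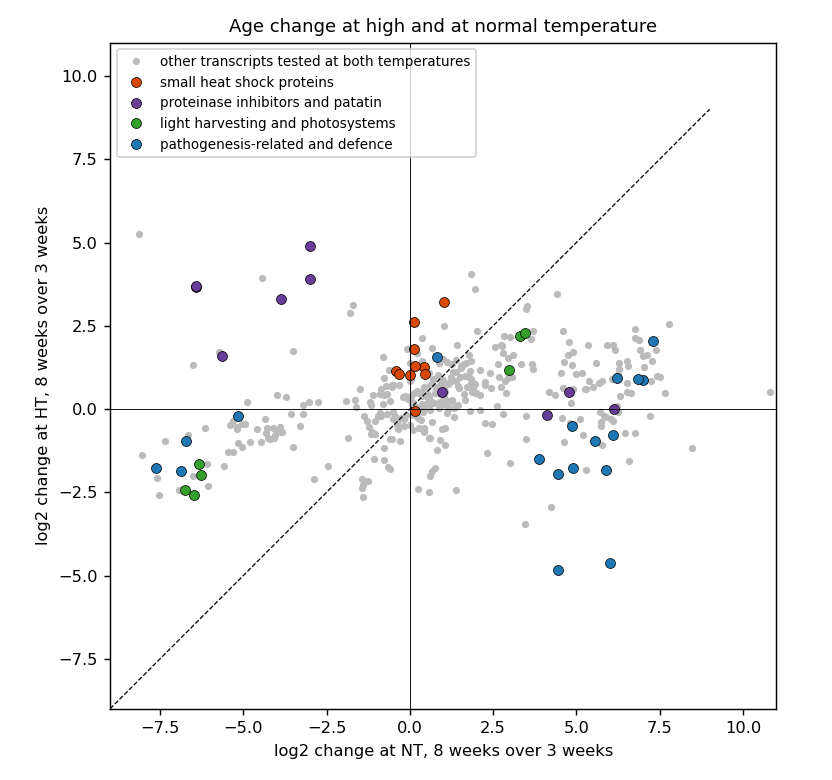
Log2 change from 3 to 8 weeks at HT (y axis) against that at NT (x axis) for the 411 transcripts tested at both temperatures, with 4 gene lists coloured; the dashed line marks equal change. Small heat shock proteins lie near 0 on the x axis and mostly above 0 on the y axis, proteinase inhibitors lie in part at the upper left, and most points spread further along the x axis, with median absolute changes of 1.9 at NT and 0.781 at HT. The points include the transcripts listed on opposite sides of NT at the 2 ages, whose listing enters the size of the NT change.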

How the data were processed

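Leaf poly(A) RNA was sequenced in 12 libraries, 3 in each group, and each title gave a library's group and replicate number. Raw counts of every library were deposited by the authors for transcripts that differed between HT and NT at each age and at both, per the file headers. Also deposited by the authors were group means of the counts (a signal), the larger group mean as RPKM, log2 fold changes, a signed fold change (a score) and p-values of HT against NT, with no test named. These were not tested here, and 0 columns of library values were left without a sample. The sources used here name no aligner, counting program or genome build. None of the identifiers matched the reference table (0 of 580), so product names are those of the deposited files and no position or sequence is given.

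The listed transcripts are a small share of each library, so the library totals that link deposited RPKM values to counts and lengths were solved for. CPM values are counts over these totals. Tests used edgeR 4.0.16 (quasi-likelihood, filterByExpr, no further scaling factor, Benjamini-Hochberg adjustment over all transcripts tested, threshold 0.05) in R 4.3.3. HT_8W was compared with HT_3W in 6 libraries, NT_8W with NT_3W in 6, and the difference of the changes as the interaction in all 12. A standard error is the size of the log2 change divided by the square root of the F statistic. Alternatives were DESeq2 1.42.0, the 3 other scalings, no filter, a stricter threshold, all 12 libraries, a replicate block and leaving out each library. The authors' scaling, recovered from their fold changes, shifts HT against NT by 0.402 at 3 weeks and 0.0937 at 8 weeks (log2). The whole shift was placed on the HT libraries and none on NT, an assumption made here and not a scaling between ages by the authors. The procedure was tested on simulated counts with the same dispersion for every transcript and no library standing apart. That differs from the HT_8W libraries, so the simulation does not show how the procedure performs on them. Tables were handled with Python 3.11.15 and pandas 2.3.3.

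A group with no counts was set to 3 counts over its libraries as the floor, which covers counting error only. The 33 gene lists are search patterns on product names. Members, lists and tests were chosen with earlier results of these data known. Transcripts named by rule were the 8 largest rises and 8 largest falls among calls with no overlap between groups, at least 10 counts on average in the higher group and a known product, where the falls numbered only 6. Added were the 2 largest calls of each list with at least 3 calls, all small heat shock proteins and heat stress factors, and the 2 uncalled transcripts with a mean of at least 1000 counts and the smallest change. No transcript matched the flowering and tuberization list.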

Additional observations from a re-analysis of the deposited data

Results flagged for a closer look

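The age change at HT differed from that at NT, by the interaction term over all 12 libraries (edgeR), in 196 transcripts, and 9 of the named transcripts were among them. Of the 196, 144 were listed by the authors on opposite sides of NT at the 2 ages, so the sign of their difference was fixed by the selection on the same libraries. These include 4 of the named transcripts, whose HT minus NT is a description only: osmotin OSML15 (-9.26), the cytochrome P450 PGSC0003DMG400013696 (-7.18), the proline transporter (-4.36) and the subtilisin-like protease (4.67). Among the other 5, HT minus NT was negative for the arachidonic acid-induced DEA1 (-2.65, adjusted p = 0.00197). It was also negative for the bHLH factor PGSC0003DMG401020927 (-4.88, adjusted p = 0.0226), where NT_3W had no counts, so that this fitted value depends on the prior count. Against 3 counts over that group, its NT_8W level was at least 18.3-fold higher. HT minus NT was positive for Hsp20.1 (2.5, adjusted p = 0.017), trichohyalin (2.22, adjusted p = 0.0232) and the class II small heat shock protein PGSC0003DMG400008187 (1.56, adjusted p = 0.0302).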

How the results depend on the processing

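The 37 calls (29 higher, 8 lower) became 138 (99 and 39) with DESeq2's Wald test, 92 (83 and 9) with the authors' scaling, 23 (15 and 8) with DESeq2 size factors and 19 (13 and 6) with TMM. They were 36 (28 and 8) without a filter and 43 (31 and 12) in 1 fit of all 12 libraries, of which 27 were among the 37. At an adjusted p under 0.01 edgeR called 0, with 0 higher and 0 lower, against 97 for DESeq2's Wald test. Leaving out 1 library in turn gave 0 to 189 calls, 0 to 125 higher and 0 to 64 lower; the 189 came without HT_8W replicate 1, and the fit then has fewer samples. The calls where HT differed from NT stayed between 167 and 199 over the left-out libraries and between 134 and 236 over the other settings. The median change was 0.306 without a filter, against 0.325. It was 0.63 with the authors' scaling, 0.096 with TMM and 0.064 with DESeq2 size factors, so its size depends on the scaling. No named transcript changed direction past the threshold. Of the 27 named transcripts 17 were called. All 17 lost their call at the stricter threshold, under the block and without HT_8W replicate 2 or any 1 HT_3W library, and up to 6 of the others gained a call. Listed transcripts can bias TMM and size factors, since both assume that most features are equal between libraries.

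The replicate numbers gave no pairing. With the replicate block edgeR called 0 transcripts, 0 higher and 0 lower, with 124 at an unadjusted p under 0.05, and HT differed from NT in 191. Deviations from the group means of same-numbered HT libraries correlated across transcripts at 0.016, -0.103 and 0.131, and those of NT libraries at 0.207, -0.039 and 0.03. Not every library correlated best with its own number: HT_3W replicate 1 did so with HT_8W replicate 2, at 0.248. The libraries share only a number.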

Other observations

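Of the 32 gene lists with members, 12 held a call at HT. Glycosyltransferases, enzymes that attach sugars to hormones and secondary metabolites, had 1 call at HT among 12 tested, higher, against 5.42% of all transcripts. Without HT_8W replicate 1, 9 of 14 were called higher, against 22.8%, and none lower. At NT 6 of 11 rose, against 37.6%, and none fell. However, 6 of the 14 were listed on opposite sides of NT at the 2 ages, and nearly all such transcripts were called at NT. The zeatin O-glucosyltransferase PGSC0003DMG400027291, named for a cytokinin substrate, had a change of 1.32 ± 0.33 at HT that did not pass (adjusted p = 0.0573, edgeR) and 4.88 at NT. Of the 12 transcripts with P450 in their product name 1 fell at HT, against 1.5% of all transcripts, while 7 of 10 tested rose and 1 fell at NT, against 37.6% and 15.8%. Geraniol 10-hydroxylase, also a P450, has another product name and is not among the 12. Of the 12, 6 were listed on opposite sides of NT at the 2 ages, and nearly all such transcripts were called at NT.

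Threonine dehydratase (PGSC0003DMG400012987), which opens the route from threonine to isoleucine, stood at 6.12, 7.70 and 15.7 CPM in HT_3W and 303, 40.6 and 109.8 in HT_8W, against 35.0, 20.6 and 20.1 in NT_3W and 0.724, 1 and 1.72 in NT_8W. The HT change of 3.94 ± 0.86 did not pass (adjusted p = 0.0505, edgeR), the NT change was -4.45 (adjusted p = 0.000318, edgeR), and HT_8W replicate 1 was the highest library. An invertase inhibitor (PGSC0003DMG400038811), which holds back sucrose cleavage, stood at 0.541, 0.478 and 0.418 CPM in HT_3W and 1.05, 39.4 and 5.64 in HT_8W, where replicate 1 lay nearest to the 3-week libraries. Its change of 5.00 ± 1.35 did not pass (adjusted p = 0.0679, edgeR), and without replicate 1 it was 5.55 (adjusted p = 0.00656, edgeR). Both were chosen after their values were seen.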
